A study of Rattus norvegicus with 6 samples.

Results

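A set of 10 genes of lipoprotein particles and of lipid uptake, lysosomal export, efflux and storage was followed in the L5 dorsal root ganglion (DRG) of rats after L5 spinal nerve transection (SNT). They were chosen by name for their roles: the apolipoproteins Apoe, Apod and Apoc1, the receptors Lrp1 and Vldlr, the lipase Lpl, the lysosomal transporter Npc1, the efflux transporters Abca1 and Abcg1, and the lipid droplet protein Plin2. Each gene was taken from the array cluster annotated to that symbol alone, and 9 of the 10 genes had such a cluster, out of 13215 genes with a symbol of their own. Apod was not analysed here. Each of the 9 genes had 1 cluster, so no choice between clusters was needed.

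The SNT group consisted of male Wistar rats whose L5 spinal nerve had been cut 7 days before the ganglion was taken, and the control group of naive male Wistar rats. Each group held 3 arrays, and RNA of 4 animals was pooled for each array, so that 12 animals stood behind a group and the variation between single animals was not measured. No sham-operated rats were included, and the surgery and the cutting of the nerve cannot be told apart. The labels name no transgene or drug for either group, and the age of the rats was not given in the sources used here.

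Lipids move between cells in particles wrapped by apolipoproteins, which bind receptors of the LDL receptor family and are taken up into endosomes. Cholesterol set free in the lysosome leaves it through NPC1 and NPC2, and is then stored as ester in lipid droplets or handed to apolipoproteins outside the cell by ABC transporters. In peripheral nerve, macrophages, Schwann cells and satellite glia are known to secrete apolipoprotein E, and macrophages that clear myelin debris have to store or export its lipid.

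Values were log2 expression levels on exon arrays, and changes are SNT minus naive on the log2 scale, ± standard error (SE) of the limma model, with n = 3 arrays per group. A gene was said to rise or fall when its adjusted p-value was below a false discovery rate (FDR) of 0.1 over all 19418 clusters. The tissue was whole ganglion, in which fewer cells of a type and less RNA per cell cannot be told apart. Levels depend on the probes of each gene and were not compared between genes. With 3 arrays in each group the smallest two-sided p of an exact permutation test is 0.1, and limma was therefore the only test used.

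Across the table, 32.1% of clusters passed the test, 17.3% as rises and 14.8% as falls. Rises made up 54% of these calls, and 35.5% when each array was centred on its median. Naive arrays correlated with each other at r = 0.994 to 0.996 across clusters, and SNT replicates 2 and 3 at 0.99. SNT replicate 1 stood apart, with r = 0.982 to the other SNT arrays and 0.978 to 0.981 to the naive arrays. Atf3 and Sprr1a, markers of injured sensory neurons, rose 13.7-fold and 57.9-fold (limma adjusted p = 3.75e-05 for both), in the direction that the labels give. Defining markers of ganglion tissue were measured on all arrays: the summed log2 level of 9 neuron markers was 15.29 to 15.37 on naive and 14.63 to 15.03 on SNT arrays.

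Of the 9 genes measured, 6 rose (Apoe, Apoc1, Lrp1, Vldlr, Abca1 and Plin2), 1 fell (Abcg1) and 2 did not pass the test (Lpl and Npc1). Leaving out any one of the other 5 arrays gave 4 rises, without Apoe and Vldlr, as did median centring, and Abcg1 was no longer called without naive replicate 1 or 2. Without SNT replicate 1 the counts were 7 rises, with Npc1 added, and 1 fall, and the changes were 0.39 for Apoe, 0.78 for Apoc1, 0.76 for Lrp1, 0.49 for Vldlr, 1.92 for Abca1, 0.82 for Plin2 and -0.45 for Abcg1. All 3 SNT arrays lay above all 3 naive arrays for the 6 genes that rose and below them for Abcg1, while the groups overlapped for Lpl and Npc1. Over all clusters the SNT arrays lay above the naive arrays in 26.0% and below them in 18.5%, 44.5% together. The median change of the 9 genes was 0.42, beside 0.09 over all clusters and 0.07 over all genes with 1 symbol. With 1 cluster per gene counted, 19.9% of genes rose and 18.3% fell. At an FDR of 0.05, which 23.0% of all clusters passed, 4 of the 9 genes were called (Abca1, Apoc1, Lrp1 and Plin2). Only Abca1 changed 2-fold or more among the 9, and 4.34% of all clusters both passed the test and changed that much.

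**Figure D1:**
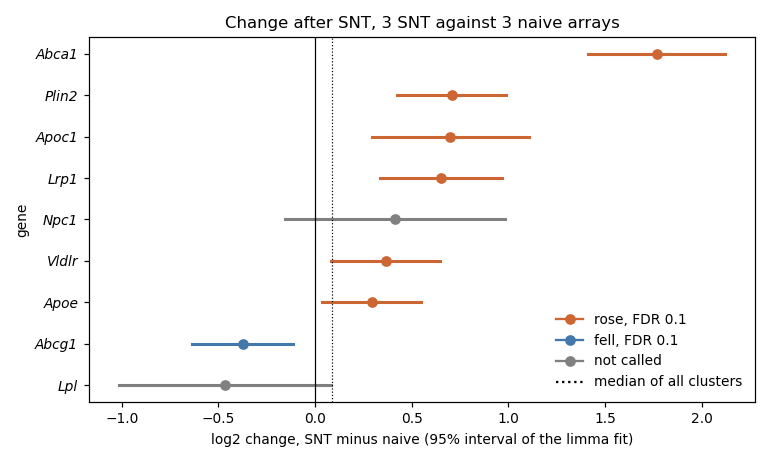
Change of each of the 9 genes on the log2 scale (SNT minus naive, horizontal axis), with points for the limma estimate bars for its 95% confidence interval, n = 3 arrays per group, and a dotted line at the median of all clusters. Abca1 stood farthest to the right at 1.77, Abcg1 and Lpl lay to the left of 0, and the intervals of Lpl and Npc1 crossed 0.

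Apolipoprotein E, a ligand of the LDL receptor family, rose by a small amount. Its log2 level was 12.60, 12.59 and 12.59 on naive replicates 1 to 3 and 12.69, 13.07 and 12.89 on SNT replicates 1 to 3. The naive arrays were nearly identical (SD 0.00456), the SNT arrays were spread out (SD 0.191), and SNT replicate 1 lay close to the naive level. The change was 0.29 ± 0.11, or 1.22-fold (95% confidence interval 0.03 to 0.55 on the log2 scale, limma adjusted p = 0.0985). The call was lost without any single array other than SNT replicate 1, with adjusted p from 0.166 without SNT replicate 3 to 0.230 without naive replicate 1, and after median centring (0.341). It was 0.0175 without SNT replicate 1.

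Apolipoprotein C-I, a small exchangeable apolipoprotein that inhibits lipoprotein lipase, is encoded next to Apoe on the rat genome. The log2 level of Apoc1 was 6.27, 6.34 and 6.25 in naive and 6.83, 7.39 and 6.74 in SNT ganglia. Its SNT arrays were higher without overlap, and SNT replicate 2 was the highest. The change was 0.70 ± 0.17, or 1.62-fold (interval 0.29 to 1.10, limma adjusted p = 0.0284), and the call held when any one array was left out, with adjusted p up to 0.0952 without naive replicate 1.

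Among 9 other apolipoproteins measured, 3 rose and 0 fell, with a median change of 0.18, and 0 were lower in limma at an unadjusted p below 0.05. Beside this list and those below, 19.9% of all genes with 1 symbol rose and 18.3% fell. Apoh, beta-2-glycoprotein I, which binds anionic phospholipids, rose from log2 levels of 5.25 to 5.63 in naive to 6.26 to 6.61 in SNT ganglia (change 1.02 ± 0.13, limma adjusted p = 0.00591). Apoa5 and Apol9a changed by 0.35 and 0.68 and lost the call without naive replicate 1 (adjusted p = 0.101 and 0.123), Apol9a also without naive replicate 3 (0.122). Apoa5, at log2 levels of 5.29 to 5.77, and Apoh in naive ganglia lay below the array medians of 6.11 to 6.31. Such low values may be nonspecific. Clu, also called apolipoprotein J and named here after its values were seen, did not pass the test at -0.10 ± 0.10 (adjusted p = 0.491).

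**Figure D2:**
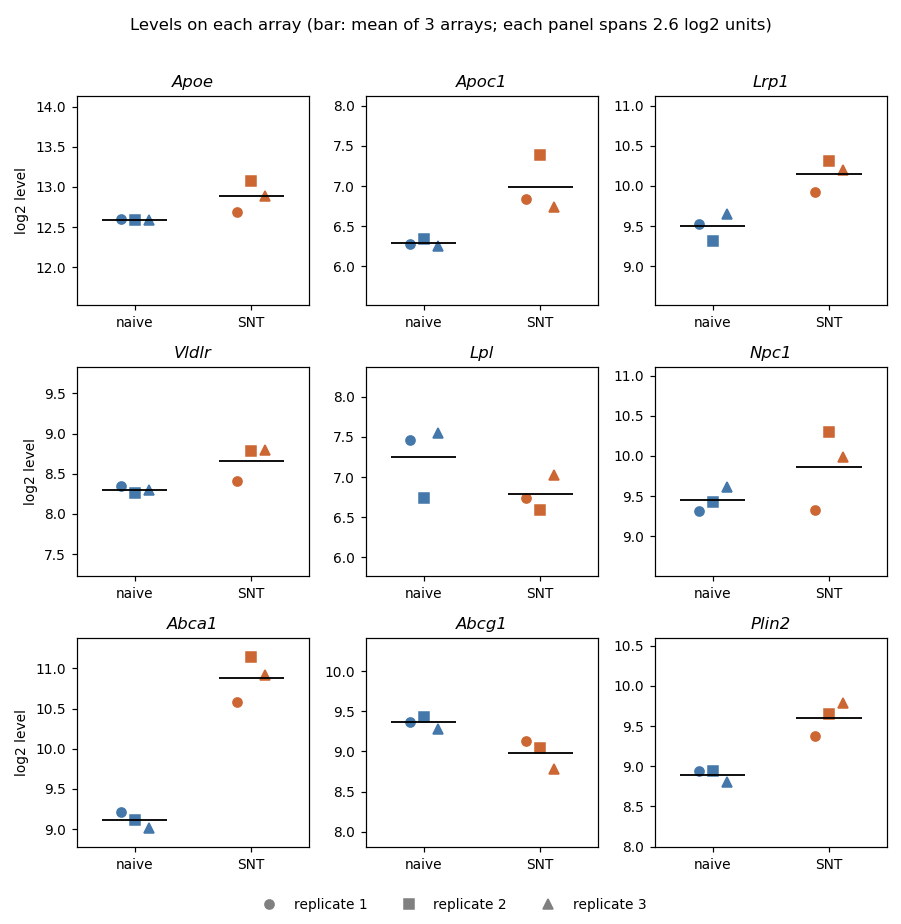
Log2 level of each of the 9 genes on each array, with points for single arrays and lines for the group means of 3 naive and 3 SNT arrays. SNT points lay above all naive points for 6 genes and below them for Abcg1, and SNT replicate 1 was the nearest to the naive arrays in 7 of the 9.

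Lrp1 encodes LDL receptor-related protein 1, a large endocytic receptor for apolipoprotein E and many other ligands. Its log2 level was 9.52, 9.32 and 9.65 in naive and 9.93, 10.31 and 10.20 in SNT ganglia, with all SNT arrays higher. Lrp1 rose by 0.65 ± 0.13, or 1.57-fold (interval 0.34 to 0.97, limma adjusted p = 0.0166), and passed the test under every alternative tried, with adjusted p from 0.00574 to 0.0644.

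The VLDL receptor, which binds apolipoprotein E and reelin, rose less. Vldlr had log2 levels of 8.35, 8.25 and 8.29 on naive arrays and 8.41, 8.78 and 8.80 on SNT arrays. SNT replicate 1 lay only just above the highest naive array, and the other SNT arrays were close to each other. The change was 0.36 ± 0.12, or 1.29-fold (interval 0.08 to 0.65, limma adjusted p = 0.0704). The call was lost without any one array other than SNT replicate 1 (adjusted p from 0.155 without naive replicate 1 to 0.190 without naive replicate 2) and after median centring (0.254), and the value was 0.49 without SNT replicate 1 (0.00488).

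Of 16 other lipoprotein and scavenger receptor genes measured, 7 rose and 3 fell, with a median of 0.19. Msr1, the class A scavenger receptor of macrophages, had log2 levels of 6.72, 6.59 and 6.76 in naive and 7.91, 8.88 and 8.26 in SNT ganglia, a rise of 1.66 ± 0.23 or 3.17-fold (limma adjusted p = 0.00646). Lrp4, a receptor of the LDL receptor family with a role at the neuromuscular junction, rose by 0.65 ± 0.10 (0.00729), and Mylip, the ubiquitin ligase that marks LDL and VLDL receptors for degradation, by 0.66 ± 0.11 (0.0106). In the other direction, Sorl1, a sorting receptor of the same family that also binds apolipoprotein E, fell from 8.61, 8.72 and 8.60 to 7.35, 5.87 and 5.93. This was a change of -2.26 ± 0.38, a level 4.8-fold higher in naive ganglia (adjusted p = 0.00987), and SNT replicate 1 lay nearest to the naive arrays. Lrpap1, the chaperone that helps LRP1 fold, fell by 0.35 ± 0.08 (0.0236), opposite to Lrp1. Lrp1b changed by -0.39 ± 0.11 and lost the call without naive replicate 1 or 2 (0.153 and 0.138). Its log2 levels of 5.50 to 6.12 lay near or below the array medians and may be nonspecific.

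Lipoprotein lipase, which releases fatty acids from triglyceride-rich particles, did not pass the test. The log2 level of Lpl was 7.46, 6.74 and 7.55 in naive and 6.74, 6.58 and 7.03 in SNT ganglia. Naive replicate 2 lay at the level of SNT replicate 1, below SNT replicate 3, and the groups overlapped. The change was -0.47 ± 0.23 (interval -1.01 to 0.08, limma adjusted p = 0.194), and -0.72 with a call as a fall without naive replicate 2 (0.0477). Naive replicate 2 was also the lowest array for the summed level of 8 Schwann cell and myelin markers, at 14.21. The other naive arrays had 14.50 and 14.56, and SNT arrays 14.30 to 14.51. It was the lowest array for summed macrophage, fibroblast, endothelial and mural cell markers as well (11.05, 13.43, 10.42 and 11.24). For the other marker lists it was not the lowest. The part of this array or of any of these cell types in the value of Lpl was not tested.

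Of 8 other genes of lipoprotein lipolysis, 2 rose and 1 fell, with a median of 0.20, and 1 rose and 2 fell after median centring. The counts before centring were near the shares of all genes, 19.9% and 18.3%. Furin, a protease that cleaves lipases and other secreted proteins, rose by 0.61 ± 0.11 (limma adjusted p = 0.0107). Lmf1, needed for the maturation of lipoprotein lipase, changed by 0.24 ± 0.07 (0.0602), which was lost without any single naive replicate (0.117 to 0.204) and without SNT replicate 2 (0.113). Lipg, endothelial lipase, changed by -0.38 ± 0.10 (0.0342), which was lost without naive replicate 1 or 2 (0.127 and 0.124). Its log2 levels of 5.14 to 5.71 lay below the array medians and may be nonspecific.

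NPC1, which moves cholesterol across the lysosomal membrane, was uneven among the SNT arrays. The log2 level of Npc1 was 9.31, 9.42 and 9.61 in naive and 9.32, 10.29 and 9.98 in SNT ganglia. SNT replicate 1 lay within the naive range, and the other SNT arrays lay above it. The change was 0.42 ± 0.24 (interval -0.15 to 0.98, limma adjusted p = 0.257), and the value depended on single arrays: it was 0.69 without SNT replicate 1 (0.0134), which passed the test, and 0.20 without SNT replicate 2 (0.532).

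Among 13 other genes of endolysosomal lipid export, 3 rose and 2 fell, with a median of -0.01, and 1 rose and 2 fell after median centring. The counts before centring were again near the shares of all genes, 19.9% and 18.3%. Npc2, the soluble partner that hands cholesterol to NPC1, had log2 levels of 10.78, 10.78 and 10.88 in naive and 11.14, 11.82 and 11.37 in SNT ganglia. Its rise of 0.63 ± 0.17, or 1.55-fold (limma adjusted p = 0.0399), was lost without naive replicate 1 or 2 (0.124 and 0.120). Tfeb and Tfe3, transcription factors of lysosomal genes, changed by 0.27 ± 0.08 and 0.24 ± 0.08. Gramd1b, a carrier of cholesterol to the endoplasmic reticulum, changed by -0.52 ± 0.13. Stard3nl, a protein of contacts between endosomes and endoplasmic reticulum, changed by -0.22 ± 0.07. None of these 5 calls held without naive replicate 1 (adjusted p = 0.103 for Gramd1b to 0.229 for Tfe3).

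Abca1, which loads cholesterol and phospholipid onto lipid-poor apolipoproteins, changed most among the 9 genes. Its log2 level was 9.21, 9.11 and 9.01 in naive and 10.58, 11.14 and 10.92 in SNT ganglia. The lowest SNT array lay 1.36 above the highest naive array. Abca1 rose by 1.77 ± 0.15, or 3.40-fold (interval 1.41 to 2.12, limma adjusted p = 0.00246), and ranked 60 among all clusters by p-value. It passed the test under every alternative tried, with changes of 1.64 to 1.92.

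The Abca1 promoter is shown because the gene changed most and because Plin2, which rose too, shares a short motif with it. Of the 10 genes, 8 had windows of 300 bases in RefSeq (GRCr8), 250 before and 50 from the start of a transcript, 12 windows in all. The 250 bases before the start of Abca1 lie at chr5:72596474-72596723 on the minus strand. Capitals mark an E-box (CACGTG), 149 to 144 bases before the start, and a TATA box.
Abca1: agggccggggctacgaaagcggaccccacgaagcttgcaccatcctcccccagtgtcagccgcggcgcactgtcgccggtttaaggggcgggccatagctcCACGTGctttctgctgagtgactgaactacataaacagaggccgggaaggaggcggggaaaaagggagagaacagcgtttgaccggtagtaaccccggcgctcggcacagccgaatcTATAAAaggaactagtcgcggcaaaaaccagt

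The search took exact letters, and an element with a changed base was not found by it. For the sterol-sensing nuclear receptor LXR, the letters were a pair of AGGTCA repeats 4 bases apart. They were in 0 of the 12 windows, and in 0.00598% of all 33469 windows. AGGTCA alone was in 0 of 12 and in 16.2%, a PPAR element with those repeats 1 base apart in 0 and 0.0538%, the lysosomal element GTCACGTG in 0 and 1.85%, and the sterol element TCACNCCAC in 0 and 1.12%, all read on both strands. The E-box, which lies within GTCACGTG and was searched after the others, was in 2 of 12 windows and in 6.42% of all. These are matches of letters in short windows, not binding sites. The exact LXR, PPAR, lysosomal and sterol elements were rare in all windows. A count of 0 of 12 therefore does not show that a gene lacks such an element.

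Abcg1, which exports cholesterol to mature lipoprotein particles, went the other way. Its log2 level was 9.37, 9.43 and 9.28 in naive and 9.13, 9.04 and 8.78 in SNT ganglia, with all SNT arrays lower. Abcg1 fell by 0.38 ± 0.11, a level 1.3-fold higher in naive ganglia (interval -0.64 to -0.11, limma adjusted p = 0.0507). The call was lost without naive replicate 1 or 2 (0.152 and 0.160) and under a second quantile or a cyclic loess normalisation (0.182 and 0.148). The interval of Abca1 lay wholly above 0 and that of Abcg1 wholly below it.

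Of 17 other genes of sterol and phospholipid efflux, 3 rose and 6 fell, with a median of 0.04. The rises were near the 19.9% of all genes with 1 symbol, and the falls above the 18.3%. Abcb4, a phosphatidylcholine transporter best known from bile canaliculi, rose by 1.42 ± 0.22, or 2.67-fold (limma adjusted p = 0.00784). Nr1h3, which encodes LXR alpha, an activator of Abca1 and Abcg1, had log2 levels of 7.61, 7.41 and 7.72 in naive and 7.88, 8.59 and 8.34 in SNT ganglia, a rise of 0.69 ± 0.19 (0.0387). Its partner Rxra rose by 0.53 ± 0.14 (0.0371). Both were lost without naive replicate 1 or 2, at 0.109 and 0.128 for Nr1h3 and at 0.130 and 0.125 for Rxra.

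The 3 falls with the smallest adjusted p were all of transporters. Abca6, a transporter of the ABCA subfamily, had log2 levels of 7.45, 7.66 and 7.25 in naive and 5.98, 4.73 and 4.62 in SNT ganglia, a change of -2.34 ± 0.35 (limma adjusted p = 0.00767). Abca5, a lysosomal transporter of the same subfamily, fell from 8.80, 8.79 and 8.74 to 7.65, 6.75 and 7.22, a change of -1.57 ± 0.21 (0.00610). Abcg2, a multidrug transporter, fell by 0.63 ± 0.08 (0.00549). SNT replicate 1 was the nearest to the naive arrays for all 3 genes.

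Plin2, perilipin 2, coats lipid droplets in most cell types. Its log2 level was 8.95, 8.94 and 8.80 in naive and 9.38, 9.65 and 9.78 in SNT ganglia, with all SNT arrays higher. Plin2 rose by 0.71 ± 0.12, or 1.63-fold (interval 0.42 to 0.99, limma adjusted p = 0.00997), and passed the test under every alternative tried. The 250 bases before its start lie at chr5:106229019-106229268 on the minus strand, in GRCr8. Capitals mark the E-box shared with Abca1, here 67 to 62 bases before the start.
Plin2: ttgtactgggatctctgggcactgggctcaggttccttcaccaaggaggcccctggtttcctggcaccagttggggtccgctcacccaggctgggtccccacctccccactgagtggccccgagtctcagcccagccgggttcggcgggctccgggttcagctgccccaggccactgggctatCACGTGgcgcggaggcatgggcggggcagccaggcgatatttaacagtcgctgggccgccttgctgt

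Of 19 other lipid droplet genes, 8 rose and 4 fell, with a median of 0.17, and 3 rose and 6 fell after median centring. Cidec, a protein of droplet fusion, had log2 levels of 5.86, 5.80 and 5.63 in naive and 6.81, 6.45 and 6.66 in SNT ganglia, a rise of 0.88 ± 0.12 (limma adjusted p = 0.00610). Its naive levels lay below the array medians and may be nonspecific. Soat1, which esterifies cholesterol for storage, rose from 8.93, 8.61 and 8.92 to 9.34, 10.08 and 9.89, by 0.95 ± 0.20 or 1.93-fold (0.0178). Acsl4, which activates long-chain polyunsaturated fatty acids, rose by 0.73 ± 0.13 (0.0122). Nceh1, a hydrolase of cholesterol esters, fell by 0.68 ± 0.12 (0.0104). Mgll, monoacylglycerol lipase, changed by -0.65 ± 0.16 (0.0275), and Acsl3, which activates fatty acids for droplet growth, by -0.37 ± 0.10 (0.0398). Both calls were lost without naive replicate 1 (0.102 and 0.134), that of Acsl3 also without naive replicate 3 (0.133).

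Of 13 fatty acid binding and transport proteins measured, 1 rose and 4 fell, with a median of -0.03. Fabp3, the heart-type fatty acid binding protein, had log2 levels of 8.93, 9.19 and 8.72 in naive and 7.33, 6.39 and 6.39 in SNT ganglia, a level 4.75-fold higher in naive (change -2.25 ± 0.27, limma adjusted p = 0.00512). Fabp7, a marker of satellite glia, fell from 10.39, 10.22 and 10.42 to 9.69, 8.63 and 8.97, by 1.25 ± 0.25 (0.0160). Slc27a6, a fatty acid transporter, changed by -0.47 ± 0.13 and was lost without naive replicate 1 or 2 (0.128 and 0.137). Slc27a5 changed by 0.24 ± 0.07 and was lost without any single naive replicate or SNT replicate 3 (0.129 to 0.181), and after median centring (0.298). The log2 levels of Slc27a5, 4.45 to 4.76, and of Slc27a6, 4.61 to 5.43, were low and may be nonspecific.

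**Figure D3:**
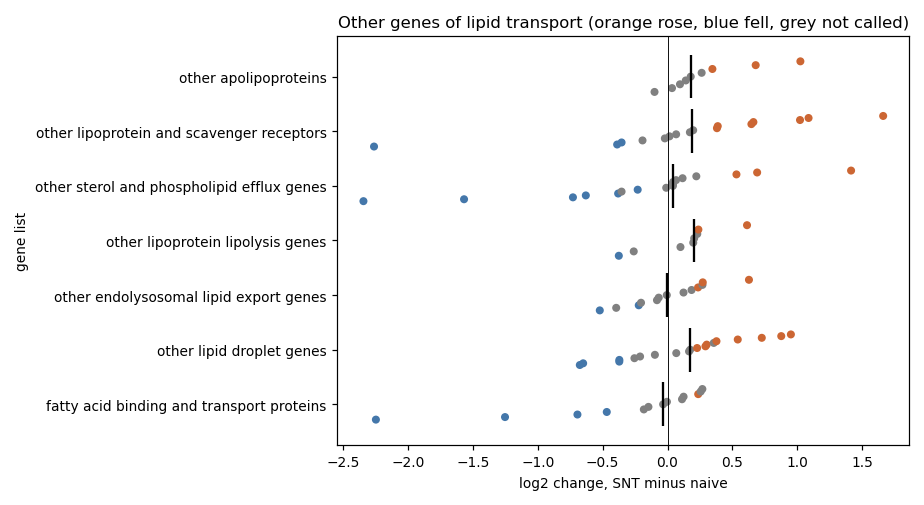
Change of each measured gene in the 7 lists of other lipid transport genes on the log2 scale (SNT minus naive, n = 3 arrays per group), in orange for genes that rose at FDR 0.1, blue for those that fell and grey for the rest, with a black bar at the median of each list. Rises and falls occurred side by side in 6 lists, with Abca6, Sorl1 and Fabp3 lowest at -2.34, -2.26 and -2.25.

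Over these 7 lists, 27 of the 95 genes measured rose, 20 fell and 48 did not pass the test, with a median of 0.10. These rises and falls were 28.4% and 21.1% of the genes measured, beside 19.9% and 18.3% of all genes with 1 symbol. With each array centred on its median, 18 of the listed genes rose and 26 fell, so that falls outnumbered rises. Falls also outnumbered rises over all clusters then, at 3403 beside 1869.

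The SNT arrays varied more than the naive arrays for 8 of the 9 genes, and for 76.3% of all clusters. SNT replicate 1 was the nearest SNT array to the naive mean in 7 of the 9 and in 39.6% of all clusters. Among genes that rose it was the nearest in 5 of 6, beside 56% of all clusters that rose. SNT replicate 2 was the farthest in 6 of the 9 and in 35.7% of all clusters. The median of the 9 genes, each taken from its naive mean, was 0.11 on SNT replicate 1, 0.75 on SNT replicate 2 and 0.50 on SNT replicate 3.

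**Figure D4:**
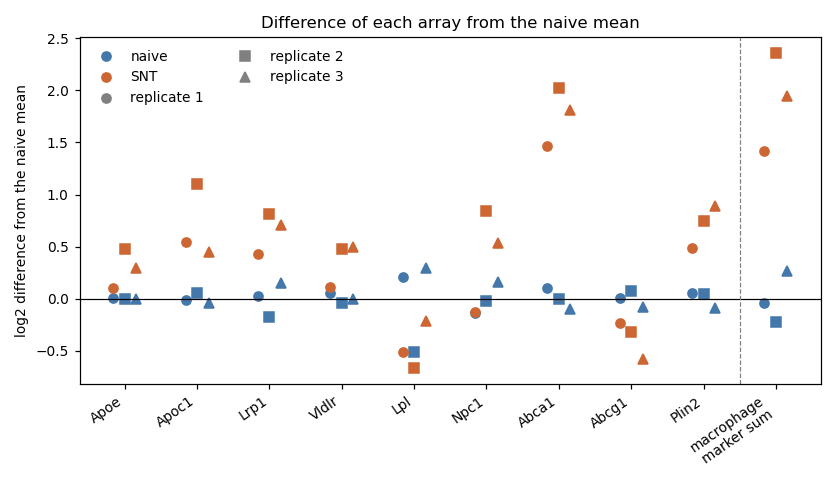
Difference of each array from the naive mean on the log2 scale for each of the 9 genes and, right of the dashed line, the summed level of 13 macrophage markers, with points for the 3 naive and 3 SNT arrays. SNT replicate 1 lay nearest to 0 among the SNT arrays in 7 genes, and at -0.13 for Npc1.

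Markers of several cell types in the ganglion also changed after SNT, in both directions. Over all genes with 1 symbol, 19.9% rose and 18.3% fell. All 13 macrophage markers measured rose, among them C1qa, C1qb and Spi1 (2.31 ± 0.19, 2.46 ± 0.23 and 1.47 ± 0.16), and their summed log2 level was 11.05 to 11.55 on naive and 12.70 to 13.64 on SNT arrays. The C1qa level was 7.98, 8.0 and 8.35 in naive and 10.04, 10.67 and 10.54 in SNT ganglia, lowest among SNT arrays in replicate 1. T cell markers rose in 4 of 5, with summed levels of 7.46 to 7.57 and 8.65 to 9.76. The part of either cell type in the values of Apoe, Apoc1, Lrp1, Abca1, Plin2 and Msr1 was not tested.

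Of 9 neuron markers 6 fell and 0 rose, and of 7 satellite glia markers 2 rose and 3 fell, with summed levels of 13.41 to 13.44 on naive and 13.10 to 13.18 on SNT arrays. Schwann cell and myelin markers rose in 3 of 8 and fell in 0, with Mag at 0.76 ± 0.16, and their summed levels overlapped between groups. Fibroblast markers rose in 4 of 8, with Fn1 at 1.85 ± 0.25, endothelial markers in 3 of 7 and mural cell markers in 3 of 7, and none of these 3 lists had a fall. Adipocyte markers rose in 2 of 9 (Cidec, and Plin1 at 0.30 ± 0.09, the latter lost without any single naive replicate, at 0.140 to 0.162), with summed levels of 8.67 to 8.78 and 8.85 to 9.09. Cidec and Plin1 were counted among the lipid droplet genes as well, and the other 7 adipocyte markers did not pass the test. The 2 rises of 9 were near the 19.9% of all genes with 1 symbol that rose. Except for Pparg and, in SNT ganglia, Cidec, adipocyte markers lay below the array medians of 6.11 to 6.31. Such low values may be nonspecific. Neither skeletal muscle (5 markers) nor red cell markers (2) passed the test in either direction, though SNT replicate 3 had the highest summed muscle level, 10.99 beside 9.42 to 10.05 on the other arrays. Where 0 markers of a list rose or fell, 0 did so in limma at an unadjusted p below 0.05 as well. After median centring, rises numbered 3 for fibroblast, 1 for endothelial, 3 for mural cell, 2 for Schwann cell and 1 for adipocyte markers. Neuron markers then fell in 8 of 9. Macrophage and T cell rises stayed at 13 and 4, and satellite glia markers at 2 rises and 3 falls. The part of these cell types in the changes of lipid genes was not tested.

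**Figure D5:**
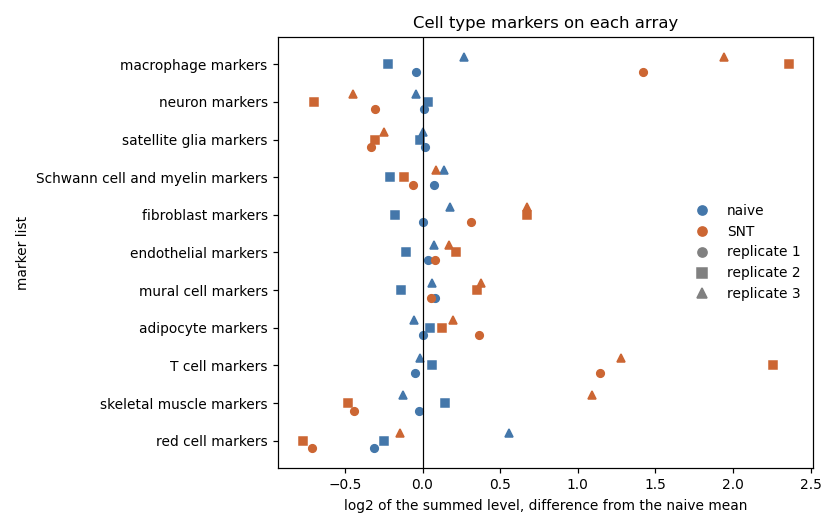
Log2 of the summed level of each list of cell type markers on each array, as the difference from the naive mean (horizontal axis), with points for 3 naive and 3 SNT arrays. Summed levels of macrophage, T cell, fibroblast, endothelial and adipocyte markers were higher on all SNT arrays than on all naive arrays. The endothelial groups nearly touched, with a naive maximum of 10.60 and an SNT minimum of 10.61. Sums were not centred on the array medians, which were 6.11 to 6.165 on naive and 6.176 to 6.313 on SNT arrays. The narrow separations of fibroblast and endothelial markers may not hold after centring. Summed levels of neuron and satellite glia markers were lower on all SNT arrays.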

How the data were processed

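Affymetrix Rat Exon 1.0 ST arrays were hybridised with polyadenylated RNA of pooled L5 DRG, 3 naive and 3 SNT arrays. The authors deposited log2 values for 19418 transcript clusters, made with the oligo package and robust multi-array average (RMA: background correction, quantile normalisation, median polish), with versions not given in the sources used here. Median polish compresses large differences, and quantile normalisation assumes like distributions on all arrays. No background level was set, so that low values may be nonspecific. Precision is limited by the number of arrays.

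By the platform annotation, 13327 clusters carried 1 symbol, 620 several and 5471 none, and 13232 matched RefSeq (GRCr8). Where a gene had several clusters (102 genes), the highest mean over 6 arrays stood for it. SNT and naive were compared with lmFit and eBayes (limma 3.58.1, R 4.3.3), two-sided, with group as the only term, Benjamini-Hochberg adjustment over all clusters and FDR 0.1. The model was also run on simulated data with the same spread in both groups. In the arrays the SNT spread was the larger in 76.3% of clusters, so that run does not cover unequal spreads. Summed levels are log2 of summed linear levels over a list.

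Genes named were the 10 members, up to 3 rises and up to 3 falls of each lipid list and up to 3 genes of each marker list by smallest adjusted p, and Atf3 and Sprr1a. Clu and Acta1 were named outside this rule. The members and lists were chosen with earlier results of these data known. There were 17 alternatives: normalisation, moderation, array weights, replicate block, filter on dim clusters, clusters tested, choice of cluster, FDR 0.05 and leaving out each array. The E-box and the single AGGTCA were added to the promoter search later. The parallel RNA-seq was not analysed here.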

Additional observations from a re-analysis of the deposited data

How the results depend on the processing

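The 9 genes kept their direction under all 17 alternatives, and 127 of the 153 pairs of gene and alternative kept their call. Direction could turn only under other normalisations, array weights and the leaving out of arrays. The other alternatives (moderation, block, dim filter, clusters tested, choice of cluster and FDR) leave the change itself as it was. Each gene had 1 cluster, so the choice of cluster could not alter a call either. Abca1, Apoc1, Lrp1 and Plin2 passed the test in all 17. In 22 pairs a call was lost (Apoe 9, Vldlr 8, Abcg1 5) and in 4 gained. Npc1 passed with array quality weights (0.58, limma adjusted p = 0.05) and without SNT replicate 1, Lpl without naive replicate 2 and with the block. Cyclic loess raised Apoe to 0.49, and the robust prior gave it a limma adjusted p of 0.101. Members that fell numbered 0 at FDR 0.05, with cyclic loess and with a second quantile normalisation, and 0 to 1 when 1 array was left out, against 1. Members that rose numbered 4 to 7 with 1 array left out, against 6.

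Over all clusters 3367 rose, 2198 at FDR 0.05, 1869 after median centring and 1643 to 3851 with 1 array left out, and 2865 fell, 1856 to 3226 with 1 array left out. Of the other lipid genes 27 rose and 20 fell, 13 to 27 and 9 to 25 with 1 array left out, and 18 and 26 after median centring, which turned the balance. Acta1, a muscle marker at 0.09, ranged from -0.27 without SNT replicate 3 to 0.28 without SNT replicate 2. Leaving out an array lowers the degrees of freedom, and other causes were not tested.

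Replicate numbers did not pair the arrays: deviations from the group means of arrays with the same number correlated at -0.07, -0.15 and 0.05. With the number as a block, 4 members rose and 2 fell, with limma adjusted p of 0.158 for Apoe, 0.127 for Vldlr and 0.0817 for Lpl, and 19 of the other lipid genes rose and 16 fell.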
